A study of Mus musculus with 86 samples.

Results

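The comparison concerns small RNA from the testes of untreated mice heterozygous for *Btbd18* at postnatal day 18 (P18, 3 libraries) and postnatal day 10 (P10, 2 libraries), which are 5 of the 86 samples of the series. They were chosen by age, genotype and assay in the labels, and all 24276 features of the small RNA count table were read. Both ages share the same genotype: each animal carried 1 knocked-out *Btbd18* allele on a C57BL/6 (B6) X 129/SvJ hybrid background, so neither age is wild type. *Btbd18* encodes a nuclear BTB-domain protein. RNA came from whole testes, which hold germ cells together with Sertoli, peritubular, Leydig and blood cells. The labels name no pooled animals, no batch and no spike-in, and they leave unsaid whether each library stands for its own animal, so every p-value here rests on library-to-library spread, which may be technical. The P18 libraries carry the numbers 1 and 3, and one whose column name fits no sample title was used as the unnumbered P18 library. Beside them stand 2 heterozygous P14 libraries, 5 libraries of the homozygous knockout at P18 and P10, 4 heterozygous libraries described as enriched for piRNA, and 6 heterozygous testis RNA libraries.

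PIWI-interacting RNAs (piRNAs) are short RNAs of germ cells that are carried by PIWI proteins and are known for keeping transposable elements silent. In the mouse testis, pachytene piRNAs are cut from long precursors that mostly lie between genes, and these are switched on under the transcription factor A-MYB when spermatocytes enter the pachytene stage of meiosis. The germ cells of a young testis advance together in a first wave. At P10 this wave has reached the start of meiosis, and by P18 it has reached late pachytene. MicroRNAs (miRNAs) are cut from hairpins by Drosha and Dicer and lower the output of messenger RNAs that match their seed. Small nucleolar RNAs (snoRNAs) are released from introns: the box C/D kind guides ribose methylation of ribosomal RNA, and the box H/ACA kind guides its pseudouridylation.

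The miRNAs that carry the comparison are shown by their mature sequences from RefSeq, build GRCm38.p6, 5′ to 3′, with the seed (bases 2 to 8) in capitals. The counts are per gene and do not separate the 2 arms of a hairpin, so an arm shown need not be the one counted. For *Mir34c* and *Mir375* the reference gave only the arm shown, and their other arms and seeds are missing here. The first set was higher at P18 than at P10. In it miR-34b-5p, miR-449a-5p and miR-449c-5p share the seed GGCAGUG, miR-34b-3p and miR-34c-3p share AUCACUA, and miR-375-5p and miR-184-3p stand alone. miR-34a-5p is set beside them because it carries the same seed and its gene did not rise.
miR-34b-5p: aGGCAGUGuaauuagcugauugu
miR-449a-5p: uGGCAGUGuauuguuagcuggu
miR-449c-5p: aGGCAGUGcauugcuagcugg
miR-34a-5p: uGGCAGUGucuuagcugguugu
miR-34b-3p: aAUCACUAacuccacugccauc
miR-34c-3p: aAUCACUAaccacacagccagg
miR-375-5p: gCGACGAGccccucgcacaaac
miR-184-3p: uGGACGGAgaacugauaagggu
The *Mir34b* and *Mir34c* arms lie on the minus strand within 1 stretch of chromosome 9, with miR-34c-3p at chr9:51103044-51103065, miR-34b-3p at chr9:51103574-51103595 and miR-34b-5p at chr9:51103610-51103632. That stretch falls inside the annotated bounds of the protein-coding genes *Btg4* and *Hoatz*. miR-449c-5p at chr13:113036008-113036028 and miR-449a-5p at chr13:113037549-113037570 lie on the plus strand inside *Cdc20b*, a protein-coding gene. miR-34a-5p is at chr4:150068473-150068494 on the plus strand, miR-375-5p at chr1:74900696-74900717 and miR-184-3p at chr9:89802263-89802284, the last 2 on the minus strand.

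The second set fell. All 4 come from the imprinted Dlk1-Dio3 region of chromosome 12, on the plus strand, and are shown because every tested miRNA gene of that region fell.
miR-376a-3p: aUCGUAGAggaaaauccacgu
miR-376b-3p: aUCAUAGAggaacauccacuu
miR-377-3p: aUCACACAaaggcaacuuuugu
miR-369-3p: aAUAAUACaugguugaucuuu
Their positions are chr12:109723824-109723844, chr12:109723508-109723528, chr12:109740553-109740574 and chr12:109743466-109743486. The last 2 lie inside the long noncoding RNA gene *Mirg*. The third set holds miRNAs whose share of all miRNA counts moved or that were among the most abundant: miR-881-3p, the leading miRNA at P18 by gene count, miR-202-3p, a miRNA of Sertoli cells, and let-7g-5p and let-7i-5p, which share the seed GAGGUAG.
miR-881-3p: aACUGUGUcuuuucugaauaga
miR-202-3p: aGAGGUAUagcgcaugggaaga
let-7g-5p: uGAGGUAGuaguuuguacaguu
let-7i-5p: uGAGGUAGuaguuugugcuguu
miR-881-3p is at chrX:66801954-66801975 on the minus strand, miR-202-3p at chr7:139957695-139957716 on the minus strand, let-7g-5p at chr9:106178846-106178867 on the plus strand and let-7i-5p at chr10:122985698-122985719 on the minus strand.

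The libraries differed in depth with age. Totals were 19365439, 20310440 and 17683949 counts at P18 (libraries 1, unnumbered and 3, the order used throughout), against 4827885 and 4270171 counts at P10 (libraries 1 and 2). In the series the P18 small RNA samples are also numbered apart from the P10 and P14 ones. Age and any difference between these sets of libraries thus cannot be told apart. Levels are given as CPM, counts scaled to a library's total. CPM is not scaled by length, so the order of loci or genes given below is one of counts, not of counts per base. After a filter on low counts 10405 features were tested with edgeR's quasi-likelihood test, and an adjusted p below 0.05 (Benjamini-Hochberg over all 10405) counts as a call. With a biological coefficient of variation of 0.233 and these group sizes, simulated 4-fold changes were called in 82% of cases and 2-fold changes in 15%. The simulated data held 200 changed features and no shift in library makeup, so these rates need not hold for the real comparison.

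Because the makeup of the library changed, the scaling matters more than usual. Trimmed-mean (TMM) scaling, which sets the typical feature to no change, moved log2 fold changes up by a median of 2.03 relative to scaling by total counts. The median over all tested features was 0.00 with TMM and -2.02 with total counts. A feature is said to have risen or fallen below only where both scalings call it the same way, and fold changes and adjusted p-values are those with TMM unless total counts are named. By that rule 639 features rose, 6.14% of those tested, and 2514 fell, 24.2% of those tested. With TMM alone 28.4% were called higher and 24.2% lower, and with total counts alone 6.15% and 63.8%. The ± after a log2 fold change is a standard error derived from the test statistic, not an SD between libraries. It rests on the spread shared by all libraries of a table.

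The makeup of the small RNA libraries differed between the ages in every class. The 100 intergenic piRNA loci, named in the table by chromosome and band, held 60.9%, 59.3% and 53.6% of all counts at P18, against 0.265% and 0.303% at P10. Their mean share was 57.9% ± 3.88 at P18 (SD, n = 3) and 0.284% ± 0.0267 at P10 (SD, n = 2), a 204-fold ratio. The 1121 miRNA genes held 10.4%, 11.1% and 12.8% at P18, against 38.6% and 36.0% at P10. The 119 snoRNA genes held 22.9%, 24.1% and 27.5% at P18, against 43.8% and 43.5% at P10. At P10 miRNAs and snoRNAs together thus made up most of each library, and at P18 the intergenic loci did.

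The smaller classes moved the way of the miRNAs. The 114 genic piRNA loci, which are named after a gene, held 0.600% ± 0.0396 at P18 (SD, n = 3) and 1.33% ± 0.0873 at P10 (SD, n = 2). All other features held 5.16% ± 0.304 at P18 and 17.5% ± 1.89 at P10 with the same n; among them long noncoding RNA genes held 2.66% to 3.13% at P18, against 7.23% to 8.55% at P10, and protein-coding genes 1.82% to 2.07% at P18, against 5.95% to 6.58% at P10. In none of the 5 classes did the ages overlap. An exact two-sided permutation test over the 5 libraries gave p = 0.2 for each class, the smallest p that 3 against 2 libraries allow. Shares within a library add to 100%, so a rise of 1 class lowers the share of the others whatever their amount. The counting error of a share was at most 0.047 percentage points (half-width of the 95% Wilson interval), which covers counting error only, and at these depths it is far below the spread between libraries.

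**Figure D1:**
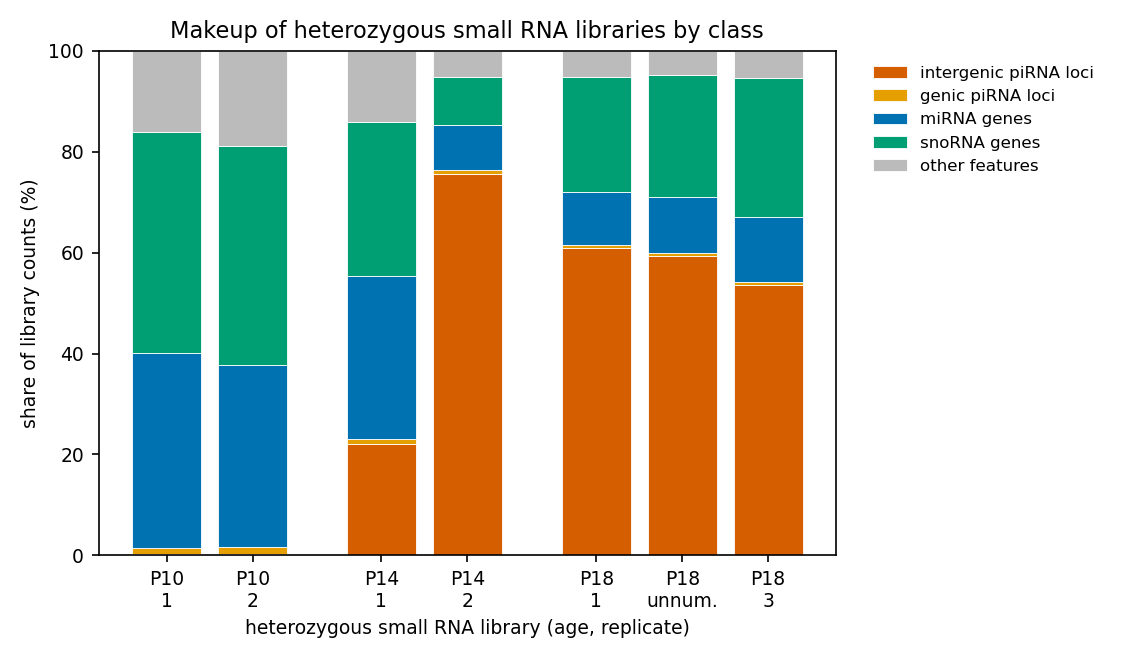
Share of all counts (%, stacked bars from 0 to 100) taken by each class of feature in each heterozygous small RNA library, by age and replicate number. Intergenic piRNA loci take under 1% of both P10 libraries and 53.6% to 60.9% of the P18 libraries, and the 2 P14 libraries differ, at 22.0% and 75.5%.

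In bulk tissue a higher level can come from more cells of a type or from more RNA per cell, and these cannot be told apart. Markers in the testis RNA of the same ages moved with the small RNA. There 30.8% of all tested features rose and 34.6% fell. All 5 spermatocyte markers rose; the mean of *Ldhc*, a lactate dehydrogenase of the testis, was 1539 ± 194 CPM at P18, against 0.282 ± 0.233 CPM at P10, and that of *Sycp3*, a protein of the meiotic chromosome axis, 457 ± 58.9 CPM at P18, against 63.3 ± 2.71 CPM at P10 (SD, n = 3 each). All 5 spermatogonial markers and all 4 Sertoli cell markers fell, among them *Amh*, with 33.4 ± 2.99 CPM at P18, against 496 ± 135 CPM at P10. Of 3 spermatid markers *Acrv1* rose while *Tnp1* and *Prm1* stayed below 1 CPM. Of the 4 Leydig, 3 peritubular and 2 macrophage markers, *Insl3* and *Cd68* were called higher with TMM only and the 3 peritubular ones lower with total counts only. In the small RNA, those of smooth muscle and peritubular cells were abundant (*Mir143*, described with the miRNAs below, and *Mir145*). Markers of blood, endothelium, striated muscle, liver and neural tissue were at 0 or low: *Mir451*, *Mir486*, *Mir142*, *Mir223*, *Mir1a-2*, *Mir133a-2*, *Mir124a-1* and *Mir9-1* had no count in any of the 5 libraries, and the erythroid *Mir144* had 35 to 68 counts at P18, against 152 and 132 at P10. A row at 0 need not mean absence: *Mir127* and *Mir434* were at 0 too, beside the abundant *Mir379* of the same Dlk1-Dio3 cluster. Why such rows are at 0 was not tested, so they do not show that these cells were missing. The part of cell makeup in the changes below was not tested.

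Of the 100 intergenic piRNA loci 99 were tested, and 94 rose and 2 fell, where 6.14% of all features rose and 24.2% fell. Counting calls with TMM alone, 95 were higher and 2 lower, and with total counts alone 94 and 3. The locus left out, 1-qE2.3-2, had no count in any library. The loci lie on 18 chromosomes in 53 bands, and 28 bands hold 2 or more of them. The median log2 fold change was 11.37 with TMM and 9.32 with total counts, against 0.00 and -2.02 over all features. Since 4 loci had no count at P10, a median of plain CPM ratios was also taken with those loci set to a floor of 3 counts over the 2 P10 libraries (0.330 CPM); it was 9.35 on the log2 scale. By that measure 88 of the 94 loci were more than 16-fold higher at P18 and 41 more than 1000-fold higher.

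The loci that rose covered a wide range of levels. Their mean levels at P18 ran from 1.04 to 87143 CPM with a median of 1192 CPM and quartiles of 341 and 7205 CPM, against a median of 3.14 CPM and a highest level of 307 CPM at P10. At P18 19 of the 94 were above 10000 CPM, 50 were above 1000 CPM and 10 were below 100 CPM. The order of the loci was nearly the same in each P18 library, with Spearman correlations of 0.994 to 0.997 between library pairs over the 94 loci, and weaker between the ages (0.61 between P18 and P10). These correlations run over loci of the same libraries and describe them only.

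The highest locus at P18 was 17-qA3.3-26735, with 88470.0, 79750.0 and 93220.0 CPM at P18, against 53.6 and 73.1 CPM at P10 (log2 fold change 12.47 ± 1.23, adjusted p = 6.80e-07; 10.43 with total counts). Its neighbour in the same band, 17-qA3.3-27363, had 59020.0, 54110.0 and 58700.0 CPM at P18, against 22.2 and 39.3 CPM at P10 (log2 fold change 12.91 ± 1.27, adjusted p = 6.80e-07). Together this pair held 24.2%, 22.6% and 28.4% of all intergenic counts at P18, against 2.86% and 3.71% at P10. In terms of the whole library they held 14.8%, 13.4% and 15.2% of all counts at P18, more than all miRNA genes together.

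Next in level were 9-qC-31469, 14-qA3-19970 and 2-qE1-35981. Locus 9-qC-31469 had 36450.0, 35390.0 and 31560.0 CPM at P18, against 12.6 and 15.7 CPM at P10 (log2 fold change 13.30 ± 1.26, adjusted p = 5.54e-07). At 14-qA3-19970 the levels were 27920.0, 25800.0 and 25540.0 CPM at P18, against 9.11 and 16.4 CPM at P10 (log2 fold change 13.07 ± 1.28, adjusted p = 6.53e-07). At 2-qE1-35981 they were 27650.0, 29500.0 and 22060.0 CPM at P18, against 7.66 and 13.1 CPM at P10 (log2 fold change 13.37 ± 1.32, adjusted p = 6.80e-07). All 5 leading loci were above 10000 CPM in every P18 library and below 100 CPM in both P10 libraries, and with total counts their log2 fold changes were 10.43 to 11.31.

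The 6 loci with the smallest p were of middle or low level. Locus 4-qB3-639 had 1155, 1118 and 1125 CPM at P18, against 3.11 and 3.98 CPM at P10 (log2 fold change 10.37 ± 0.79, adjusted p = 1.65e-07), and 4-qB3-277 in the same band had 367, 342 and 317 CPM at P18, against 0.621 and 0.937 CPM at P10 (log2 fold change 10.81 ± 0.91, adjusted p = 2.91e-07). The lowest of the 6 was 10-qC1-117, with 36.0, 30.6 and 41.5 CPM at P18, against 1.04 and 0.703 CPM at P10 (log2 fold change 7.38 ± 0.67, adjusted p = 4.34e-07). The other 3 were more abundant: 12-qE-7089 averaged a 2268-fold, 15-qD1-4001 a 2274-fold and 8-qC5-2209 a 518-fold higher CPM at P18. Their log2 fold changes were 13.20 ± 1.21 (adjusted p = 4.34e-07), 13.19 ± 1.23 (adjusted p = 5.30e-07) and 11.06 ± 1.02 (adjusted p = 4.59e-07).

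Of the loci that rose, the 2 with the highest P10 levels both lay in band 6-qF3. At 6-qF3-3040 the levels were 3368, 2914 and 2786 CPM at P18, against 287 and 328 CPM at P10 (log2 fold change 5.35 ± 0.72, adjusted p = 1.12e-05; 3.30 with total counts), a 9.83-fold difference in mean CPM. At 6-qF3-1063 they were 1070.0, 1041 and 858 CPM at P18, against 71.9 and 77.5 CPM at P10 (log2 fold change 5.78 ± 0.85, adjusted p = 2.52e-05), a 13.2-fold difference. Both differences are small beside those of the leading loci.

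The 2 intergenic loci that fell were among the 3 highest at P10. Locus 7-qD2-40 had 98.7, 93.8 and 125 CPM at P18, against 1633 and 1847 CPM at P10 (log2 fold change -1.99 ± 0.34, adjusted p = 9.49e-05; -4.04 with total counts). It held 61.6% and 61.0% of intergenic counts at P10, and 0.0162%, 0.0158% and 0.0233% at P18. Locus 2-qE5-4 had 8.98, 9.80 and 13.6 CPM at P18, against 148 and 179 CPM at P10 (log2 fold change -1.87 ± 0.26, adjusted p = 1.68e-05; -3.92 with total counts). At neither locus did the ages overlap.

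The remaining 3 loci, named after their values were seen, had few counts and were not called alike by both scalings. Locus 4-qD3-2082 had 30, 24 and 17 counts at P18, against 0 and 3 counts at P10 (3.89 ± 0.89 with TMM scaling (adjusted p = 0.00163) and 1.85 with total counts (adjusted p = 0.0545)). At 5-qG2-950 there were 14, 14 and 11 counts at P18, against 4 and 8 at P10 (1.08 ± 0.58 with TMM scaling (adjusted p = 0.125) and -0.96 with total counts (adjusted p = 0.19)). At 10-qC2-545 there were 7, 4 and 1 counts at P18, against 13 and 5 at P10 (-1.17 ± 0.63 with TMM scaling (adjusted p = 0.124) and -3.16 with total counts (adjusted p = 4.55e-05)).

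Counts were spread over more loci at P18. The leading 8, 9 and 7 loci made up 50% of the intergenic counts of the P18 libraries, against 1 locus in each P10 library, and 31, 32 and 29 loci made up 90% at P18, against 15 and 13 at P10. At least 1 count was seen at 99 loci in every P18 library, against 91 and 93 loci in the shallower P10 libraries. By chromosome, the 6 loci of chromosome 17 took 23.6% to 29.2% of intergenic counts at P18, against 3.07% and 3.87% at P10, and the 10 loci of chromosome 7 took 9.85% to 10.6% at P18, against 62.9% and 62.3% at P10.

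**Figure D2:**
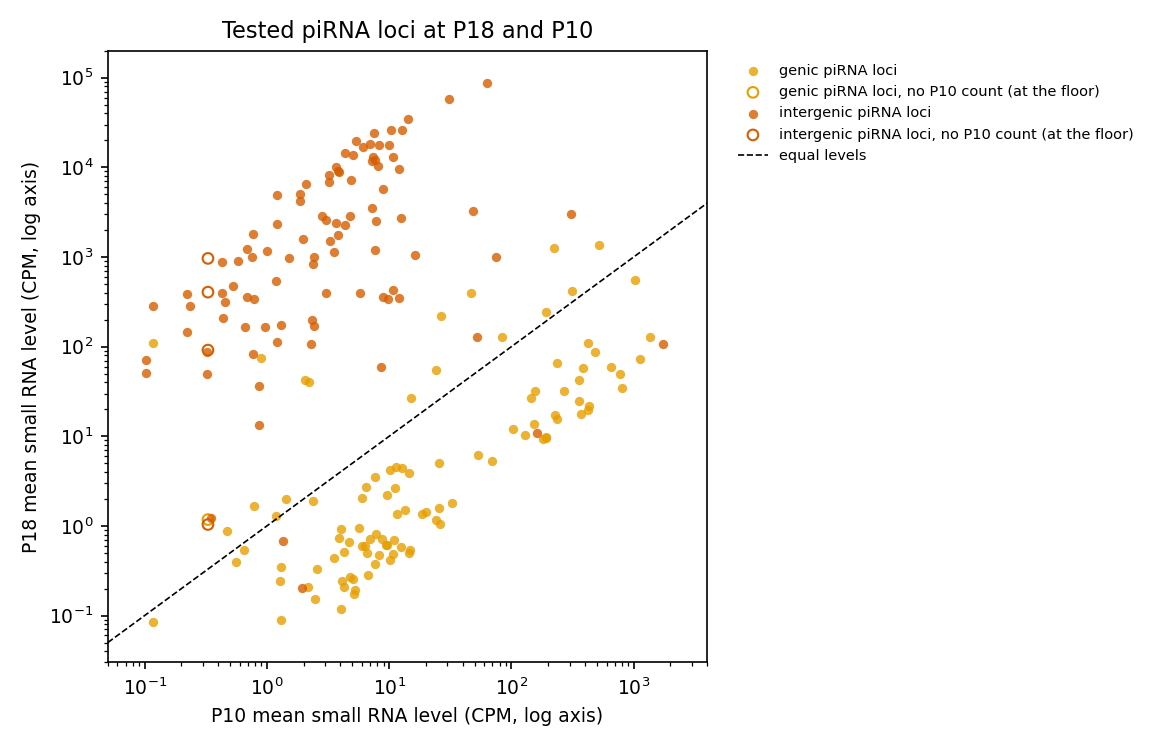
Mean level of each tested piRNA locus at P18 (vertical axis) against P10 (horizontal axis), both in CPM on log axes; open circles mark loci with no P10 count, drawn at the floor of 3 counts. The 94 intergenic loci that rose form a cloud far above the line of equal levels, 7-qD2-40 and 2-qE5-4 lie below it, and most genic loci lie below it.

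Genic piRNA loci did not follow the intergenic ones. Of 104 tested, 10 rose and 56 fell, where 6.14% of all features rose and 24.2% fell. The median log2 fold change was -1.04 with TMM and -3.09 with total counts. With TMM alone 24 were higher and 56 lower, and with total counts alone 10 and 81. The other 10 of the 114 had too few counts to be tested. Reads of such a locus and of the gene it is named after may be split by the counting: 107 of the 114 host genes are in the table, and 80 of them have no count in any small RNA library.

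Among the genic loci that rose, pi-Tbl2 (chromosome 5, 135149429 to 135163873 for its host gene in GRCm38.p6) had 45.0, 39.9 and 42.9 CPM at P18, against 2.49 and 1.64 CPM at P10 (log2 fold change 6.40 ± 0.49, adjusted p = 1.65e-07). The locus pi-1700016M24Rik, named after a gene known only by its clone, had 65.0, 51.4 and 110.2 CPM at P18, against 0.621 and 1.17 CPM at P10 (log2 fold change 8.43 ± 0.75, adjusted p = 4.14e-07). For pi-Pou6f1, named after a POU-domain transcription factor gene, the levels were 44.4, 39.5 and 37.2 CPM at P18, against 2.28 and 2.11 CPM at P10 (log2 fold change 6.24 ± 0.69, adjusted p = 1.73e-06). The P18 libraries of these loci were all above the P10 libraries.

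At 2 further loci the P10 counts were too few for a fold. The locus pi-1700006A11Rik had 2370, 2445 and 1597 counts at P18, against 0 and 1 counts at P10 (adjusted p = 1.74e-06). At pi-Tktl2 there were 25, 18 and 24 counts at P18 and none in either P10 library, so its mean CPM was at least 3.57-fold higher (floor of 3 counts over the 2 P10 libraries; adjusted p = 4.74e-06). Of the abundant genic loci, pi-Cbl, named after a ubiquitin ligase gene, had 1514, 1379 and 1182 CPM at P18, against 501 and 546 CPM at P10 (log2 fold change 3.43 ± 0.64, adjusted p = 2.55e-04; 1.38 with total counts, adjusted p = 0.0367). For pi-Zfp382, named after a zinc finger gene, the levels were 1371, 1238 and 1158 CPM at P18, against 210.2 and 238 CPM at P10 (log2 fold change 4.54 ± 0.59, adjusted p = 6.94e-06). For pi-Eif2c2, named with the older symbol of the Argonaute gene *Ago2*, they were 420.0, 398 and 377 CPM at P18, against 46.8 and 46.4 CPM at P10 (log2 fold change 5.15 ± 0.58, adjusted p = 1.99e-06). None of these abundant loci gained as much as the leading intergenic ones.

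The genic loci that fell included the most abundant ones at P10. The locus pi-Trim71, named after a stem cell ubiquitin ligase gene that is itself a let-7 target (chromosome 9, 114511268 to 114564369), had 32.4, 29.2 and 41.8 CPM at P18, against 736 and 858 CPM at P10 (log2 fold change -2.49 ± 0.32, adjusted p = 5.84e-06). At pi-Elk4, named after an ETS transcription factor gene, the levels were 72.5, 60.8 and 87.7 CPM at P18, against 1114 and 1159 CPM at P10 (log2 fold change -1.91 ± 0.31, adjusted p = 6.39e-05). At pi-D10Wsu102e they were 119.5, 114 and 146 CPM at P18, against 1216 and 1509 CPM at P10 (log2 fold change -1.38 ± 0.32, adjusted p = 0.00155), and at pi-D730040F13Rik 46.9, 42.1 and 59.2 CPM at P18, against 704 and 836 CPM at P10 (log2 fold change -1.92 ± 0.31, adjusted p = 6.33e-05). In each of them every P18 library was below both P10 libraries.

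Others fell to a similar degree from lower levels. Mean CPM was 21.7-fold lower at pi-Zyg11a, 20.7-fold lower at pi-Kcng3 and 19.9-fold lower at pi-Ccrn4l, with log2 fold changes of -2.39 ± 0.30 (adjusted p = 4.80e-06), -2.33 ± 0.31 (adjusted p = 8.44e-06) and -2.27 ± 0.27 (adjusted p = 3.11e-06). The sparse loci pi-Rad54l2 and pi-Klf13 were below 1 CPM in all P18 libraries, against 14.7 and 14.8 CPM and 18.4 and 10.5 CPM at P10. At the abundant locus pi-Eif4ebp2 the call rested on the scaling. It had 455, 432 and 378 CPM at P18, against 293 and 336 CPM at P10 (2.48 ± 0.45 with TMM scaling (adjusted p = 1.83e-04) and 0.42 with total counts (adjusted p = 0.499)).

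Of 321 tested miRNA genes 6 rose and 156 fell, where 6.14% and 24.2% of all features did. Taken with TMM alone 35 were higher and 156 lower, and with total counts alone 6 were higher and 278 lower. The median log2 fold change was -0.84 with TMM, against 0.00 over all features, and -2.86 with total counts, against -2.02. In plain CPM 300 of the 321 were lower in every P18 library than in both P10 libraries and 7 were higher; over all tested features the groups did not overlap for 75.3% on the low side and 10.8% on the high side. The 6 that rose were *Mir34b*, *Mir34c*, *Mir449a*, *Mir449c*, *Mir375* and *Mir184*.

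Members of the miR-34 and miR-449 family, which is known for its part in multiciliated cells and in late male germ cells, thus made up 4 of the 6. *Mir34c* had 3431, 3886 and 3213 CPM at P18, against 345 and 236 CPM at P10 (log2 fold change 5.65 ± 0.67, adjusted p = 3.29e-06; 3.60 with total counts). *Mir34b* had 328, 365 and 279.9 CPM at P18, against 23.8 and 18.3 CPM at P10 (log2 fold change 6.00 ± 0.60, adjusted p = 7.61e-07; 3.94 with total counts). These 2 hairpins are neighbours on chromosome 9, and in both every P18 library was above both P10 libraries.

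The hairpins of the *Mir449* group on chromosome 13 were less abundant. *Mir449a* had 65.2, 66.7 and 63.3 CPM at P18, against 21.8 and 11.2 CPM at P10 (log2 fold change 4.03 ± 0.64, adjusted p = 5.12e-05; 1.98 with total counts). *Mir449c* had 8.37, 6.79 and 8.71 CPM at P18, against 1.24 and 1.64 CPM at P10 (log2 fold change 4.50 ± 0.51, adjusted p = 2.10e-06; 2.46 with total counts). The third hairpin, *Mir449b*, was too sparse to be tested. The family as a whole held 3.77%, 3.98% and 2.88% of all miRNA counts at P18, against 0.253% and 0.187% at P10. Both miR-449a-5p and miR-449c-5p carry the seed GGCAGUG printed above.

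*Mir34a* carries the same seed and moved otherwise. Its levels were 93.8, 96.3 and 136 CPM at P18, against 585 and 407 CPM at P10 (-0.14 ± 0.31 with TMM scaling (adjusted p = 0.72) and -2.19 with total counts (adjusted p = 1.44e-04)). Every P18 library was thus below both P10 libraries in CPM, the opposite order to *Mir34b* and *Mir34c*.

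The other 2 miRNA genes that rose are not of that family. *Mir375*, best known from pancreatic islets, had 102, 104 and 73.7 CPM at P18, against 4.76 and 5.15 CPM at P10 (log2 fold change 6.29 ± 0.79, adjusted p = 5.02e-06; 4.23 with total counts). *Mir184*, a miRNA known from the eye and from germ cells, had 93.6, 164 and 114 CPM at P18, against 12.4 and 12.4 CPM at P10 (log2 fold change 5.39 ± 0.61, adjusted p = 2.10e-06; 3.32 with total counts). Neither had overlapping ages.

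**Figure D3:**
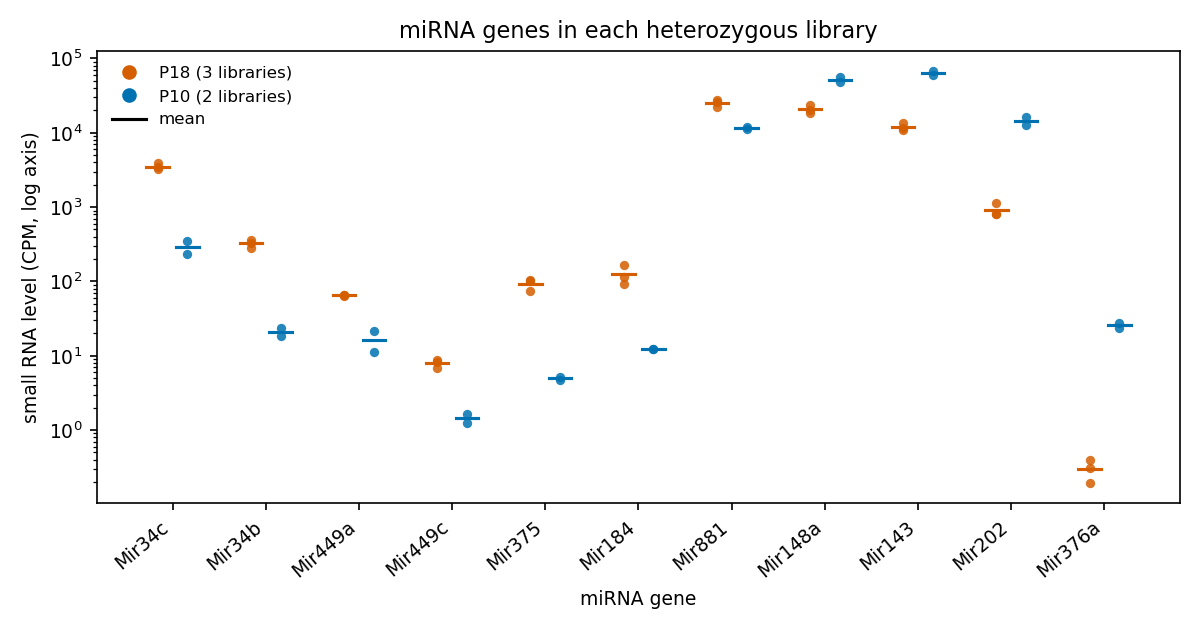
Level (CPM, log axis) of 11 miRNA genes in each P18 library (left of each pair) and each P10 library (right), with lines at the means. *Mir34c*, *Mir34b*, *Mir449a*, *Mir449c*, *Mir375*, *Mir184* and *Mir881* are higher in all 3 P18 libraries, and *Mir148a*, *Mir143*, *Mir202* and *Mir376a* are lower.

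The clearest fall by position was on chromosome 12. The Dlk1-Dio3 region holds a large imprinted cluster of miRNA genes that is transcribed from the maternal chromosome. Of its 40 listed names 39 were in the table and 31 could be tested, and all 31 fell, with a median log2 fold change of -2.84 with TMM and -4.87 with total counts. As a share of all miRNA counts the cluster held 0.669%, 0.602% and 0.704% at P18, against 4.28% and 4.23% at P10. Of all 46 tested miRNA genes of chromosome 12, 40 fell, while of 232 on the other autosomes 99 fell and 6 rose.

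The most abundant members at P10 were *Mir379*, *Mir411* and *Mir381*. *Mir379* averaged 283 ± 45.7 CPM at P18, against 4798 ± 282 CPM at P10 (SD, n = 3 and n = 2), a log2 fold change of -2.04. *Mir411* averaged 78.2 ± 15.3 CPM at P18, against 3657 ± 395 CPM at P10 (-3.50), and *Mir381* 161 ± 27.5 CPM at P18, against 2347 ± 182 CPM at P10 (-1.82). Among the smallest p were sparser members of the same cluster. *Mir376a* had 0.310, 0.197 and 0.396 CPM at P18, against 27.6 and 23.9 CPM at P10 (log2 fold change -4.37 ± 0.35, adjusted p = 1.80e-07). *Mir369* had 2.63, 1.77 and 3.62 CPM at P18, against 146 and 132 CPM at P10 (log2 fold change -3.67 ± 0.36, adjusted p = 6.53e-07).

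The mature sequences of 4 of these are printed above. *Mir377* had 1.29, 1.13 and 1.75 CPM at P18, against 55.5 and 48.9 CPM at P10 (log2 fold change -3.19 ± 0.31, adjusted p = 6.51e-07), and *Mir376b* had 3.00, 2.95 and 3.68 CPM at P18, against 97.8 and 79.4 CPM at P10 (log2 fold change -2.74 ± 0.26, adjusted p = 5.74e-07). *Mir665*, inside the gene *Rtl1*, had 2, 3 and 4 counts at P18, against 61 and 53 counts at P10 (log2 fold change -4.23 ± 0.39, adjusted p = 4.38e-07). The only one of the 6 smallest p from outside the cluster was *Mir6516*, inside the noncoding gene *Snhg20* on chromosome 11, with 0.568, 0.689 and 0.566 CPM at P18, against 19.9 and 22.9 CPM at P10 (log2 fold change -3.07 ± 0.26, adjusted p = 3.48e-07). In all 6 the P18 libraries lay far below the P10 libraries.

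X-linked miRNA genes took a larger share of all miRNA counts at P18. The 85 on the X chromosome held 33.3%, 34.6% and 32.7% of miRNA counts at P18, against 8.08% and 9.66% at P10. Nearly all of it lay in a fixed list of 29 genes, the X-linked testis clusters together with X-linked genes from elsewhere on the chromosome. *Mir221*, for example, starts at chrX:19146294, against chrX:66801944 for *Mir881*. The list held 33.3% ± 1.01 at P18 (SD, n = 3) and 8.27% ± 1.09 at P10 (SD, n = 2, exact two-sided permutation p = 0.2, the smallest possible). This was a shift among miRNAs more than a gain in the library. Of the 24 tested genes of the list 13 were higher with TMM, where 28.4% of all features were. With total counts 10 were lower, where 63.8% of all features were, and 4 fell with both, where 24.2% of all features did. These 4 were *Mir188*, *Mir500*, *Mir362* and *Mir221*, the last not without P10 library 1 (adjusted p = 0.213). *Mir881* and its neighbours *Mir871*, *Mir470* and *Mir878* were not among them. The median log2 fold change was 1.15 with TMM, against 0.00 over all features, and -0.91 with total counts, against -2.02.

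*Mir881*, which lies in a cluster of testis miRNAs next to *Mir871*, *Mir470* and *Mir878* on the X chromosome, made up most of that shift. Its levels were 22380.0, 25600.0 and 27500.0 CPM at P18, against 11310.0 and 11940.0 CPM at P10 (3.17 ± 0.60 with TMM scaling (adjusted p = 2.63e-04) and 1.11 with total counts (adjusted p = 0.129)). As a share of miRNA counts it held 21.5%, 23.0% and 21.4% at P18, which made it the leading miRNA gene, against 2.93% and 3.32% at P10. Its neighbours were near the same CPM at both ages: *Mir470* had 3180.0, 3126 and 3404 CPM at P18, against 3034 and 3468 CPM at P10 (2.04 ± 0.45 with TMM scaling (adjusted p = 0.00112) and -0.01 with total counts (adjusted p = 0.994)), and *Mir878* had 938, 982 and 1125 CPM at P18, against 1012 and 1218 CPM at P10 (1.91 ± 0.40 with TMM scaling (adjusted p = 7.20e-04) and -0.14 with total counts (adjusted p = 0.845)). *Mir871* had 3026, 2881 and 3227 CPM at P18, against 4423 and 5256 CPM at P10 (1.38 ± 0.44 with TMM scaling (adjusted p = 0.0141) and -0.67 with total counts (adjusted p = 0.32)), and its call with TMM ended without either P10 library (adjusted p = 0.125 and 0.0711).

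The leading miRNA at P10 was *Mir143*, a miRNA of smooth muscle and peritubular cells. Its levels were 10960.0, 11590.0 and 13740.0 CPM at P18, against 67140.0 and 60350.0 CPM at P10 (-0.35 ± 0.97 with TMM scaling (adjusted p = 0.783) and -2.40 with total counts (adjusted p = 6.13e-04)), and its share of miRNA counts was 10.5%, 10.4% and 10.7% at P18, against 17.4% and 16.8% at P10. *Mir148a*, the second at both ages, had 18320.0, 20380.0 and 23670.0 CPM at P18, against 55720.0 and 47780.0 CPM at P10 (0.73 ± 0.97 with TMM scaling (adjusted p = 0.545) and -1.32 with total counts (adjusted p = 0.0606)). Its share of miRNA counts was 17.6%, 18.3% and 18.4% at P18, against 14.4% and 13.3% at P10. *Mir202*, known from Sertoli cells, fell: it had 798, 798 and 1147 CPM at P18, against 16120.0 and 12920.0 CPM at P10 (log2 fold change -1.94 ± 0.44, adjusted p = 0.00125; -3.99 with total counts). It moved with the Sertoli cell markers of the testis RNA, all 4 of which fell, where 34.6% of all features did. The part of Sertoli cells in the fall of *Mir202* was not tested.

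The let-7 family is known for rising as cells differentiate. Of 12 tested members 5 fell (*Mirlet7d*, *Mirlet7e*, *Mir98*, *Mirlet7c-1* and *Mirlet7a-2*), where 24.2% of all features and 156 of the 321 miRNA genes did, and the family held 10.1% ± 0.600 of miRNA counts at P18 (SD, n = 3) and 12.7% ± 1.01 at P10 (SD, n = 2). The 2 leading members were not called with TMM. *Mirlet7g* had 5467, 5585 and 7143 CPM at P18, against 23160.0 and 23640.0 CPM at P10 (0.10 ± 0.48 with TMM scaling (adjusted p = 0.877) and -1.95 with total counts (adjusted p = 0.00395)), and *Mirlet7i* had 4417, 4365 and 5720.0 CPM at P18, against 17830.0 and 19000.0 CPM at P10 (0.12 ± 0.47 with TMM scaling (adjusted p = 0.851) and -1.93 with total counts (adjusted p = 0.00394)). Several let-7 hairpins share a mature sequence, and how reads with several matches were counted is not stated, so the split among them is uncertain.

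The miR-17-92 cluster and its paralogs, known from dividing cells, fell in part. Of 13 tested members 8 fell, where 24.2% of all features and 156 of the 321 miRNA genes did. The calls of *Mir19b-1*, *Mir106b* and *Mir19b-2* lay near the threshold (adjusted p = 0.0462 to 0.0481). *Mir25*, the most abundant member at P10, was not called with TMM (0.40 ± 0.71, adjusted p = 0.657) and was lower with total counts (-1.65, adjusted p = 0.00743). *Mir20a* had 214, 208 and 235 CPM at P18, against 2020.0 and 1940.0 CPM at P10 (log2 fold change -1.13 ± 0.33, adjusted p = 0.00891), a call that ended without P10 library 1 (adjusted p = 0.0644) or P10 library 2 (adjusted p = 0.053). *Mir93*, inside the replication gene *Mcm7*, had 128, 116 and 143 CPM at P18, against 1461 and 1354 CPM at P10 (log2 fold change -1.40 ± 0.30, adjusted p = 9.40e-04). By seed, all 5 tested genes whose mature RNA in the RefSeq table has AAAGUGC (*Mir17*, *Mir20a*, *Mir20b*, *Mir93* and *Mir106b*) fell. The P18 libraries of *Mir106b* differed widely, at 18.8 to 105 CPM, against 692 and 825 CPM at P10. All 6 tested genes of the miR-181 group, with the seed ACAUUCA, fell too, with a median log2 fold change of -1.81 with TMM and -3.86 with total counts. None of the 4 tested genes with the seed AUUGCAC (*Mir25*, *Mir363*, *Mir92-2* and *Mir92b*) fell. Their median was 0.31 with TMM and -1.74 with total counts.

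Among the smaller lists, 1 of 3 tested genes of the miR-183 cluster fell (*Mir96*, -1.34) and 1 of 5 of the miR-200 family (*Mir429*, -0.71), where 24.2% of all features did. The 9 genes of the miR-290 cluster, which is known from pluripotent cells, had no count in any of the libraries compared. As with the markers above, this need not mean absence. Of the other abundant miRNAs at P10, *Mir99a* was lower in CPM in every P18 library, with 4350.0, 4648 and 5491 CPM at P18, against 28350.0 and 29340.0 CPM at P10 (-0.53 ± 0.48 with TMM scaling (adjusted p = 0.366) and -2.58 with total counts (adjusted p = 1.64e-04)). *Mir10b* had 2628, 2545 and 3333 CPM at P18, against 25670.0 and 23730.0 CPM at P10 (-1.08 ± 0.46 with TMM scaling (adjusted p = 0.0586) and -3.12 with total counts (adjusted p = 5.34e-06)).

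**Figure D4:**
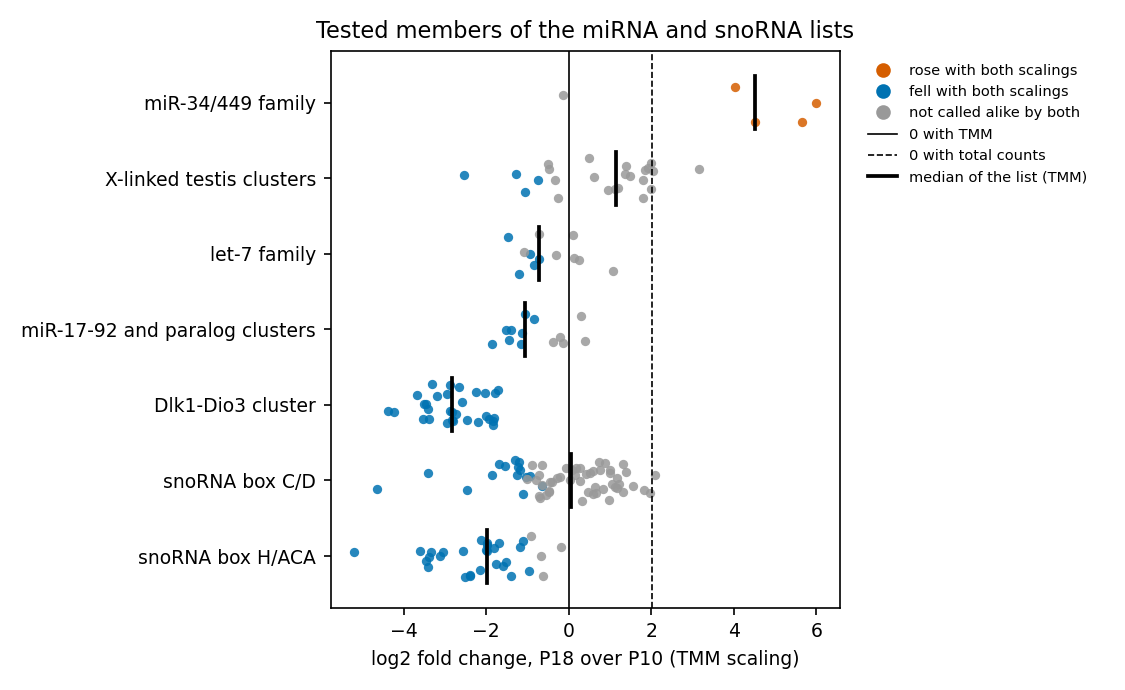
log2 fold change of P18 over P10 with TMM scaling for each tested gene of 5 miRNA lists and 2 snoRNA lists; each point is a gene, thick bars are medians, and the dashed line marks no change by total counts. The miR-34 and miR-449 family stands right of both lines except *Mir34a*, and the Dlk1-Dio3 cluster and the box H/ACA snoRNAs stand left, at medians of -2.84 and -1.99.

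Among snoRNA genes 47 of 104 tested fell, where 24.2% of all features did. With TMM alone 8 were higher and 47 lower, and with total counts alone 86 were lower. By kind, of 31 tested box H/ACA genes 27 fell, with a median log2 fold change of -1.99 with TMM and -4.02 with total counts. Of 64 tested box C/D genes 15 fell, with medians of 0.05 and -2.0, which is close to the medians of 0.00 and -2.02 over all features. Of 9 small Cajal body RNAs, which guide the modification of spliceosomal RNAs, 5 fell. Whether the kinds differ was not tested beyond these counts.

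Box H/ACA RNAs held 0.0909%, 0.0831% and 0.0787% of snoRNA counts at P18, against 0.643% and 0.640% at P10. In the P14 libraries they held 0.682% and 0.788%, so the lower share was seen in the P18 libraries only. *Snora16a*, in the host gene *Snhg12*, had 7.59, 6.20 and 5.20 CPM at P18, against 282 and 266 CPM at P10 (log2 fold change -3.38 ± 0.31, adjusted p = 4.34e-07). *Snora74a* had 0.516, 0.739 and 0.283 CPM at P18, against 23.2 and 25.1 CPM at P10 (log2 fold change -3.47 ± 0.32, adjusted p = 4.34e-07). *Snora34*, inside *Kansl2*, had 2, 0 and 1 counts at P18, against 41 and 37 counts at P10 (adjusted p = 5.32e-07). *Snora61*, also in *Snhg12*, had a log2 fold change of -3.04 ± 0.29 (adjusted p = 5.54e-07). In all 4 every P18 library was below both P10 libraries.

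Box C/D RNAs made up nearly all snoRNA counts at both ages, and a few of them carried most of it. *Snord2*, inside the translation factor gene *Eif4a2*, was the leading one, with 98310.0, 109600.0 and 121100.0 CPM at P18, against 112600.0 and 102600.0 CPM at P10 (2.08 ± 0.73 with TMM scaling (adjusted p = 0.024) and 0.03 with total counts (adjusted p = 0.974)). Its ages overlapped in CPM, while its share of snoRNA counts was 43.0%, 45.5% and 44.0% at P18, against 25.7% and 23.6% at P10. In the P14 libraries that share was 25.7% and 25.3%. The call with TMM ended when any of 4 of the 5 libraries was left out (adjusted p = 0.0666 to 0.148). *Snord82*, inside the nucleolin gene *Ncl*, was called with TMM (1.55 ± 0.59, adjusted p = 0.0343) but not with total counts (-0.49, adjusted p = 0.48), nor with TMM when any 1 of the 5 libraries was left out (adjusted p = 0.0621 to 0.164).

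The next most abundant ones were not called with TMM. *Snord68*, inside the ribosomal protein gene *Rpl13*, had 26440.0, 26740.0 and 31460.0 CPM at P18, against 44990.0 and 44720.0 CPM at P10 (1.38 ± 0.64 with TMM scaling (adjusted p = 0.0801) and -0.67 with total counts (adjusted p = 0.353)). The log2 fold changes with TMM and with total counts were 0.74 ± 0.63 and -1.31 for *Snord49a*, 0.16 ± 0.54 and -1.89 for *Snord43* in *Rpl3*, and 0.98 ± 0.60 and -1.07 for *Snord12* in *Zfas1*. The box C/D genes that fell most were *Snord22* and *Snord8*. *Snord22*, in the host gene *Snhg1*, had 11.6, 10.4 and 11.2 CPM at P18, against 1173 and 1120.0 CPM at P10 (log2 fold change -4.64 ± 0.45, adjusted p = 5.69e-07), a 103-fold lower mean. *Snord8* had 1.29, 1.38 and 1.87 CPM at P18, against 74.0 and 59.5 CPM at P10 (log2 fold change -3.42 ± 0.33, adjusted p = 5.69e-07).

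Of the 9777 other tested features 529 rose and 2253 fell. The smallest p among those that rose belonged to *Hist1h1t*, the testis-specific linker histone gene of pachytene spermatocytes, with 21.0, 19.2 and 21.9 CPM at P18, against 1.24 and 1.87 CPM at P10 (log2 fold change 5.78 ± 0.35, adjusted p = 2.46e-08). *4933416C03Rik*, *Ccdc96*, *Ndufaf1*, *Zfp592* and *Tmem67* followed, at mean CPM ratios of 9.97, 9.45, 4.15, 15.7 and 14.8. These are protein-coding genes, and their small RNA counts may hold piRNAs or fragments of the messenger RNA, which the counts do not separate. In the testis RNA 5 of the 6 rose, where 30.8% of all features did, with *Ccdc96* at 6.63 ± 0.26, while *Ndufaf1* was called higher with TMM only (0.35 ± 0.11).

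Among those that fell, *Rnu11* and *Rnu12*, RNAs of the minor spliceosome, had the smallest p. *Rnu11*, the U11 RNA, had 2.12, 1.82 and 1.81 CPM at P18, against 222 and 212 CPM at P10 (log2 fold change -4.77 ± 0.32, adjusted p = 4.75e-08), and *Rnu12*, the U12 RNA, had 10.5, 9.11 and 8.14 CPM at P18, against 827 and 879 CPM at P10 (log2 fold change -4.47 ± 0.35, adjusted p = 1.65e-07). The mean CPM was 113-fold and 92.1-fold lower at P18. Protein-coding genes followed: the clock gene *Per2* had 0.258, 0.295 and 0.283 CPM at P18, against 14.7 and 12.2 CPM at P10 (log2 fold change -3.52 ± 0.28, adjusted p = 1.86e-07), and the homeobox gene *Six4* had 1.39, 1.58 and 1.30 CPM at P18, against 53.2 and 55.3 CPM at P10 (log2 fold change -3.19 ± 0.27, adjusted p = 3.48e-07). *Gbas* and *Prss23* fell too (adjusted p = 2.91e-07 and 3.57e-07), but their P10 libraries differed from each other, with 211 and 529 CPM and 35.0 and 151 CPM.

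Of the abundant other features, *Gas5*, a noncoding host gene of box C/D snoRNAs, had 24670.0, 25190.0 and 29050.0 CPM at P18, against 63590.0 and 77270.0 CPM at P10 (0.63 ± 0.62 with TMM scaling (adjusted p = 0.414) and -1.42 with total counts (adjusted p = 0.0436)). The ribosomal RNA precursor *Rn45s* had 1908, 1768 and 2055 CPM at P18, against 16100.0 and 23070.0 CPM at P10 (log2 fold change -1.31 ± 0.46, adjusted p = 0.0221), a call that ended without P10 library 1 (adjusted p = 0.05001) or P10 library 2 (adjusted p = 0.198). *Rmrp*, the RNA of the RNase MRP enzyme, had 938, 845 and 1110.0 CPM at P18, against 4665 and 5287 CPM at P10 (-0.32 ± 0.41 with TMM scaling (adjusted p = 0.529) and -2.37 with total counts (adjusted p = 2.05e-04)). *A230103J11Rik* and *Rnu73b* were likewise lower in CPM at P18 and not called with TMM (-0.16 ± 0.49 and -0.37 ± 0.46).

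The piRNA-enriched libraries of the same genotype showed the same direction at the intergenic loci. In them the intergenic loci held 91.8% and 92.9% of counts at P18, against 1.98% and 5.29% at P10 (exact two-sided permutation p = 0.333, the smallest that 2 against 2 libraries allow). Of the 94 loci that rose without enrichment, all 94 were higher with TMM and 89 rose with both scalings, where 21.9% of all 12858 tested features were higher with TMM and 1.48% rose with both. Across the 94 loci the P18 levels with and without enrichment ranked almost alike (Spearman correlation 0.994, a description over loci). Genic loci held 1.04% of enriched counts at P18 and 9.99% ± 1.06 at P10 (SD, n = 2), and 41 of the 56 genic loci that fell without enrichment fell there too, where 20.4% of all features did. Among the miRNAs *Mir184*, *Mir34b*, *Mir34c* and *Mir375* were called higher again, at log2 fold changes of 8.93 ± 1.07, 6.41 ± 0.67, 6.00 ± 0.70 and 6.57 ± 0.77. Of the 156 miRNA genes that fell without enrichment 92 were tested there and 23 fell, where 20.4% of all features did, and of the 47 snoRNA genes 46 were tested, of which 45 were not called with TMM and 1 was higher. Of 7 tested members of the miR-17-92 cluster and its paralogs 4 were higher there with TMM, with medians over the 7 of 1.28 with TMM and -2.41 with total counts. For the 30 box H/ACA genes tested there the median log2 fold change was 0.33 with TMM, against -0.14 over all features, and -3.37 with total counts, against -3.80.

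In testis RNA, which was made from poly(A) RNA and shows longer transcripts, the same loci moved the same way. Intergenic loci held 1.11% ± 0.148 of counts at P18 and 0.0507% ± 0.00326 at P10 (SD, n = 3 each; exact two-sided permutation p = 0.1, the smallest possible). All 94 loci that rose in small RNA rose, where 30.8% of the 16334 tested features did, and both loci that fell in small RNA fell. Transcripts over 17-qA3.3-26735 averaged 612 ± 84.1 CPM at P18 and 0.195 ± 0.0942 CPM at P10. Those over 7-qD2-40 averaged 124 ± 7.41 CPM at P18 and 252 ± 21.4 CPM at P10, a log2 fold change of -0.77 ± 0.07 (adjusted p = 9.80e-09), and those over 2-qE5-4 75.8 ± 19.0 CPM at P18 and 153 ± 13.6 CPM at P10 (-0.75 ± 0.12).

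All 10 genic loci that rose in small RNA rose in testis RNA too. Of the 56 that fell, 18 fell in testis RNA, where 34.6% of all features did, 9 were called higher there with TMM, where 38.4% of all features were, and 29 were not called. Across the 94 rising intergenic loci the P18 levels in small RNA and testis RNA correlated less tightly than the 2 small RNA preparations (Spearman correlation 0.631, a description over loci).

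**Figure D5:**
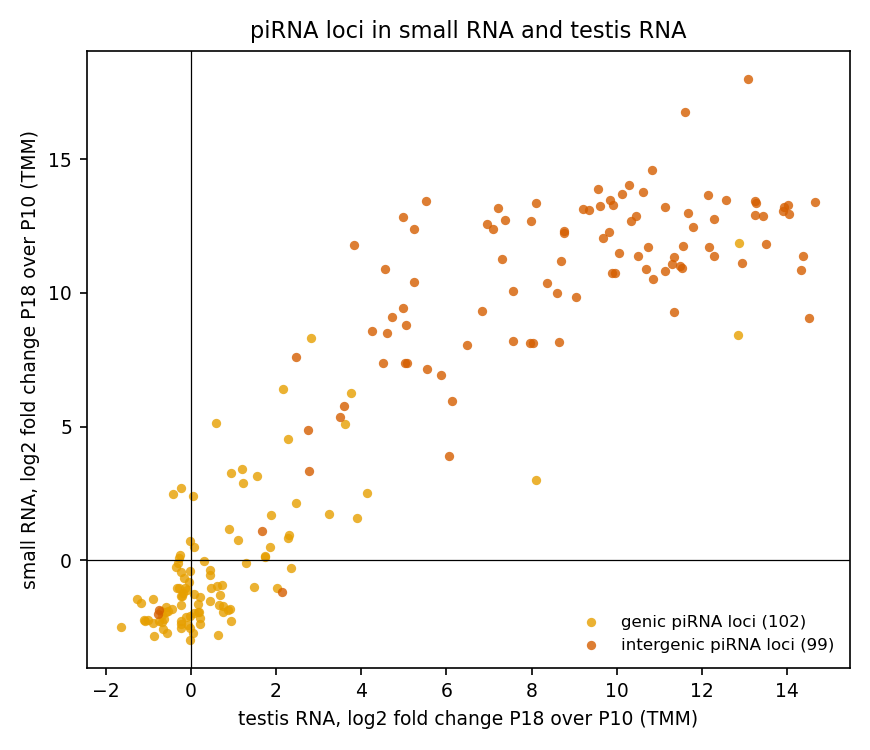
log2 fold change of P18 over P10 (TMM) in small RNA (vertical axis) against testis RNA (horizontal axis) for the 99 intergenic and 102 genic piRNA loci tested in both. Intergenic loci fill the upper right, apart from 7-qD2-40 and 2-qE5-4 at the lower left, and genic loci crowd around 0 in testis RNA and below 0 in small RNA.

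A fixed list held 25 germ cell genes, most of them of the piRNA pathway. Of these, 20 rose in testis RNA over the same span and 3 fell, where 30.8% of all features rose and 34.6% fell. The PIWI protein gene *Piwil1* averaged 986 ± 160.1 CPM at P18, against 9.76 ± 1.57 CPM at P10 (SD, n = 3 each; log2 fold change 6.93 ± 0.21, adjusted p = 4.77e-16). The Tudor-domain gene *Tdrd6* averaged 748 ± 103 CPM at P18, against 0.730 ± 0.289 CPM at P10 (10.25 ± 0.33, adjusted p = 7.95e-16). *Mybl1*, which encodes A-MYB, averaged 228 ± 23.4 CPM at P18, against 29.3 ± 3.02 CPM at P10 (3.22 ± 0.17, adjusted p = 1.17e-12). *Piwil2*, the PIWI gene that is active earlier, rose less, with 766 ± 121 CPM at P18, against 336 ± 31.2 CPM at P10 (1.46 ± 0.13).

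Those that fell were *Piwil4* (-2.29 ± 0.25), the PIWI gene of fetal and newborn germ cells, *Nanos3* (-1.60 ± 0.36) and *Fkbp6* (-0.25 ± 0.06). *Pnldc1*, the trimmer of piRNA ends, was not called with TMM (-0.18 ± 0.11, adjusted p = 0.157) but was lower with total counts (-0.44, adjusted p = 9.53e-04). *Btbd18* itself averaged 12.7 ± 1.37 CPM at P18, against 15.5 ± 1.02 CPM at P10 (-0.03 ± 0.15, adjusted p = 0.889). The miRNA machinery was mixed: of 12 tested genes 3 rose (*Dgcr8*, *Tarbp2* and *Ago4*) and 6 fell, where 30.8% of all features rose and 34.6% fell. Those that fell included *Drosha* (-0.46 ± 0.08) and *Dicer1* (-0.43 ± 0.08). *Ago2* is listed at 0 in all of these libraries. It is the host gene of the genic locus pi-Eif2c2, so its reads may be counted there, and the 0 need not mean that the gene was silent.

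At P14 the 2 heterozygous libraries were both above both P10 libraries in their intergenic share, and the P18 libraries lay between them. Intergenic loci held 22.0% of counts in P14 library 1 and 75.5% in P14 library 2, and over the 94 rising loci the median level was 0.18 and 1.29 times the P18 mean. Of the 99 tested intergenic loci 93 rose between P10 and P14, where 6.01% of all features did with both scalings. Between P14 and P18 their median log2 fold change was 1.27 with TMM, against -0.01 over all features, and 0.38 with total counts, against -1.49. The 2 P14 libraries differed from each other by more than the P18 libraries did.

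The labels of the knockouts were checked on *Btbd18* in testis RNA, where it had 2.43 to 4.19 CPM in knockouts and 11.9 to 14.3 CPM in heterozygotes at P18, and 2.02 to 2.80 CPM in knockouts and 14.4 to 16.4 CPM in heterozygotes at P10 (n = 3 each). In the small RNA of *Btbd18* knockouts the intergenic loci held 13.9% ± 8.66 of counts at P18 (SD, n = 3) and 0.355% ± 0.0342 at P10 (SD, n = 2). Of the 99 tested loci 95 rose in knockouts as well, where 26.8% of all features did, and at 33 the rise was smaller than in heterozygotes by the test of the difference with both scalings, where 0.394% of all features were lower and 5.68% higher in that way.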

How the data were processed

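The authors deposited 1 table of counts per feature for small RNA, with 1 column per library, and its counts were used as deposited. Per the labels' protocols, total RNA was taken up in TRI Reagent, small RNA was selected by size and libraries were built with the NEBNext small RNA kit. Per the submitters' processing notes the tools include TopHat and featureCounts, and for testis RNA cutadapt 1.8.1, TopHat2 2.1 and Subread 1.4.6-p3; the build is mm10. The annotation, the strand setting and the treatment of reads with several matches are not given in the sources used here. The piRNA-enriched and testis RNA tables hold counts of the same 24276 features.

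Features were put in classes by name. Chromosomes, hosts and sequences came from RefSeq tables of build GRCm38.p6, which hold 23902 of the 24062 features that are not piRNA loci (99.3%), and mature sequences for 946 of 1121 miRNA genes. edgeR 4.0.16 (R 4.3.3) fitted group means to all libraries of a table, which share 1 estimate of the spread (8 residual degrees of freedom for small RNA), with TMM factors, filterByExpr, the quasi-likelihood test and Benjamini-Hochberg adjustment over all tested features at 0.05. The filter left 10405 features in small RNA, 12858 in enriched small RNA and 16334 in testis RNA. The procedure was tested on simulated data for the small RNA comparison (10405 features, 200 changed), where it made 98 calls, 1 of them false. Those data had no shift in library makeup, so the rate of false calls in the real comparison may differ. Replicate libraries differed by more than sampling noise, with a chi-square per degree of freedom of 14.2 to 58.2 between P18 libraries and 9.48 between the P10 libraries, so none was merged as a duplicate; this does not tell animals from repeat libraries of 1 animal.

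In each class the text names the 6 features with the smallest p that rose and the 6 that fell, among those called alike by both scalings with no overlap between the ages, the 5 with the highest mean CPM at each age, and members of fixed lists; in testis RNA only the 2 lists of pathway proteins, cell markers and *Btbd18*. 1 genic locus that this rule names is not reported here. Members and lists were chosen with earlier results of these data known. Alternatives were other scalings (total counts, RLE, the miRNA total, and totals or TMM without piRNA loci), no filter, only the libraries compared, DESeq2 1.42.0, a replicate block and leaving out each library. Floors are 3 counts, and intervals are 95% Wilson intervals. Both cover counting error only.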

Additional observations from a re-analysis of the deposited data

Results flagged for a closer look

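All results singled out here are differences between genotypes in the change from P10 to P18, by the interaction term of the edgeR quasi-likelihood fit. At 33 of 99 tested intergenic loci the rise was smaller in *Btbd18* knockouts than in heterozygotes with both scalings. Over the 99 loci the median difference between the genotypes' log2 fold changes was -2.37 with TMM and -0.43 with total counts, so its size rests on the scaling. Groups of 2 or 3 libraries are too small for a test of single outlying libraries.

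Among the 7 of these loci that the report names, 9-qC-31469 had the largest difference, at -8.66 ± 1.18 on the log2 scale (adjusted p = 5.82e-04; -6.75 with total counts). Its log2 fold change was 4.64 ± 0.88 in knockouts and 13.30 ± 1.26 in heterozygotes. At 15-qD1-4001 the difference was -7.54 ± 1.30 (5.65 ± 0.96 in knockouts and 13.19 ± 1.23 in heterozygotes), and at 12-qE-7089 it was -7.53 ± 1.16 (5.66 ± 0.92 in knockouts and 13.20 ± 1.21 in heterozygotes). Both loci thus rose in knockouts by less than in heterozygotes. At 2-qE1-35981 the difference was -6.65 ± 1.18 and at 14-qA3-19970 it was -6.22 ± 1.14. The smaller differences were -4.79 ± 1.09 at 17-qA3.3-27363 and -4.15 ± 1.10 at 10-qC1-117. The adjusted p of these last 6 loci ran from 0.00111 to 0.0259, and with total counts their differences ran from -5.61 to -2.30. At the leading locus, 17-qA3.3-26735, the difference was called with TMM (-3.95, adjusted p = 0.0254) but not with total counts (-1.95, adjusted p = 0.0882).

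The genic locus pi-1700016M24Rik also rose less in knockouts, by a difference of -5.69 ± 1.11 (adjusted p = 0.00465), with log2 fold changes of 2.74 ± 0.67 in knockouts and 8.43 ± 0.75 in heterozygotes. *Ccdc96*, a protein-coding gene, went the other way: its difference was 2.76 ± 0.78 (adjusted p = 0.0343), with 8.03 ± 0.43 in knockouts and 5.27 ± 0.39 in heterozygotes. Its difference with total counts was 4.66, and 5.68% of all features were called higher in this way with both scalings.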

How the results depend on the processing

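The rise of the intergenic loci held under every setting tried: 94 to 96 loci were called higher, and 95 without any 1 of the 5 libraries. Scaling by total counts, which lowered log2 fold changes by a median of 2.03, moved other counts. With it 278 miRNA genes and 86 snoRNA genes were called lower (156 and 47 with TMM), and the calls numbered 1353 for P14 over P10 (2829 with TMM), 5492 for P18 over P14 (295 with TMM), 3939 for the difference between genotypes (931 with TMM) and 11224 in enriched libraries (5446 with TMM). P18 over P14 also had 1180 calls without the filter and 528 with DESeq2; the cause was not tested. For P18 over P10 the split of higher and lower calls was 2956 and 2514 with TMM, 640 and 6643 with total counts, 2057 and 3086 with the miRNA total, and 1321 and 3678 with the total without piRNA loci.

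The difference in share between P18 and P10 was 57.7 points for intergenic loci, -25.8 for miRNA genes and -18.8 for snoRNA genes. Without the most abundant feature of each library it was 64.7, -28.9 and -21.3 points, and among miRNA, snoRNA and piRNA loci alone it was -33.1 for miRNA and -26.7 for snoRNA genes. Leaving out 1 library gave 56.1 to 59.8, -27.1 to -24.5 and -20.2 to -17.8 points.

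Some log2 fold changes turned sign, among them *Mir470*, *Mir878*, *Mir871* and *Snord82*, which TMM called higher. With total counts they were -1.32 for *Mir148a*, -1.95 for *Mirlet7g*, -1.93 for *Mirlet7i*, -0.67 for *Snord68* and *Mir871*, -1.31 for *Snord49a*, -0.49 for *Snord82*, -1.89 for *Snord43*, -1.07 for *Snord12*, -1.42 for *Gas5*, -0.96 for 5-qG2-950, -0.0062 for *Mir470* and -0.14 for *Mir878*. With the total without piRNA loci they were -0.072 for *Mir148a*, -0.71 for *Mirlet7g*, -0.69 for *Mirlet7i*, -0.063 for *Snord49a*, -0.64 for *Snord43* and -0.17 for *Gas5*. With the miRNA total they were -0.25 for *Mirlet7g*, -0.24 for *Mirlet7i* and -0.19 for *Snord43*. Leaving out 1 library gave -0.12 to 0.14 for *Mirlet7g*, -0.10 to 0.19 for *Mirlet7i*, -0.022 to 0.23 for *Snord43* and -0.42 to 0.16 for *Mir34a*, none of them called with TMM.

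Leaving out 1 library left 4316 to 4876 calls for P18 over P10 (5470 with all), 626 to 797 for the difference between genotypes, 3705 to 4490 in enriched libraries and 11353 to 11511 in testis RNA. Between libraries of equal number the deviations from the group mean had correlations from -0.0328 to 0.0934. For small RNA and enriched libraries these values come in mirrored pairs, since only 2 libraries stand at P10. They cannot show whether equal numbers mark a shared origin. With the replicate block, which leaves out the unnumbered P18 library, P18 over P10 had 4491 calls, 95 intergenic loci higher, and 141 miRNA and 42 snoRNA genes lower. The block gave 5419 calls in enriched libraries and 11843 in testis RNA, and it turned *Mirlet7g* to -0.23, *Mirlet7i* to -0.24 and *Snord43* to -0.18. Depth limits the P10 values of the intergenic loci: 4 of them had no count there.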

Other observations

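Individual miRNA genes differed more between the 2 P14 libraries than between replicates of the other ages. Of the miRNA genes with at least 100 CPM in a library, the P14 libraries were more than 5-fold apart at 22 of 112, the P18 libraries at 2 of 63 and the P10 libraries at 1 of 119. *Mir880*, one of the 2 at P18, ran from 2.43 to 603 CPM in the P18 libraries, against 697 and 790 CPM at P10, and was not called by either scaling.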
